A study of Mus musculus with 15 samples.

Results

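The interleukins and the TNF superfamily are the main ligands and receptors through which immune cells and the surrounding stroma exchange inflammatory signals. The genes described here are those whose array annotation gives a symbol that starts with Il and a number, Tnfsf or Tnfrsf. Of the 14996 probe rows with a single gene symbol, 97 rows met this rule and they cover 96 genes, since Il17rd has 2 rows. They comprise 45 ligands, 46 receptor rows of 45 genes, 3 decoy receptors, 2 antagonists and 1 enzyme. Another 8 rows carry a gene of these families together with other genes, and these rows were not used to name a gene. Genes of the families with no single-gene row in the table used here, such as Il1rl1 and Il6ra, were not analysed here.

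Most ligands of the IL-1 family bind a specific receptor chain, which then recruits the shared chain encoded by Il1rap, and the pair signals through MYD88 to NF-kB. The antagonist encoded by Il1rn occupies the receptor without signalling, and the decoy chain encoded by Il1r2 captures ligand without signalling. TNF superfamily receptors bind trimeric ligands and signal through TRAF adaptors to NF-kB, or through death domains to caspases. Fibroblasts are known both to respond to IL-1 and TNF and to secrete IL-6, IL-33 and IL-34.

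RNA of mouse embryonic fibroblasts (MEFs), cultured cells grown from embryos, here of C57BL/6J mice, was measured per gene with the Affymetrix Mouse Exon 1.0 ST array. The 5 groups had 3 arrays each. Mta1-KO/Mta1 MEFs are Mta1-/- cells in which Mta1 was expressed again, Mta1-KO MEFs are Mta1-/- cells, and WT MEFs carry Mta1, all from embryos of day 9.0. P53-KO/Mta1 MEFs are P53-/- cells that overexpress Mta1 and P53-KO MEFs are P53-/- cells, both from embryos of day 12.5. The P53-KO MEFs came from another laboratory, so P53 genotype, embryonic age and source cannot be told apart in any comparison with WT. Mta1 encodes a subunit of the NuRD complex, which remodels and deacetylates chromatin. The study asked which genes depend on Mta1 with and without P53.

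The deposited values are log2 values centred on the median of each row over the 15 arrays. They hold no signal level, so genes were compared only between groups, a flat row cannot be told from a transcript that was not detected, and the number of arrays limits the precision. The array medians ran from -0.0165 to 0.0231. A row was called higher or lower where limma gave a Benjamini-Hochberg adjusted p under 0.05, over all 16755 rows, and the fold was 2 or more, as in the methods of the study. The labels call the Mta1-KO, P53-KO and WT arrays biological replicates and the other arrays only replicates, and do not say if each had its own embryo or culture, so the p-values reflect only how far these arrays differed, which may be technical spread. The Mta1 row itself had a log2 difference of -1.09 between Mta1-KO and WT (adjusted p = 6.17e-09 from limma). It differed by -0.17 in the Mta1-KO/Mta1-labelled arrays against Mta1-KO (adjusted p = 0.0669), so the re-expression does not show in this row. In P53-KO/Mta1 against P53-KO it was higher by 0.27 (adjusted p = 0.00603), a fold under 2. The study also compared Mta1 protein in the 5 groups by Western blot, which these arrays do not measure. The directions given for both comparisons are those of the labels.

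Between Mta1-KO and WT MEFs the largest rises among these genes were in the IL-1 family. The receptor genes Il1rl2, Il18rap, Il1rap and Il1r1, which are 4 of the 6 measured receptor rows of the family, and the antagonist Il1rn were higher in Mta1-KO, while the ligands IL-1 alpha and beta and those of the IL-36 group differed by 0.20 or less and were not called. In the TNF superfamily, the death ligand Tnfsf10 and its receptor Tnfrsf10b were higher, and the decoy receptor Tnfrsf11b was the gene with the largest fall. Of the 97 rows, 16 were called, 13 higher and 3 lower. Across the whole array 6.64% of rows were called, 4.23% higher and 2.41% lower. By role, 3 of 45 ligand rows were called, all higher, and 11 of 46 receptor rows were called, 9 higher and 2 lower.

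**Figure D1:**
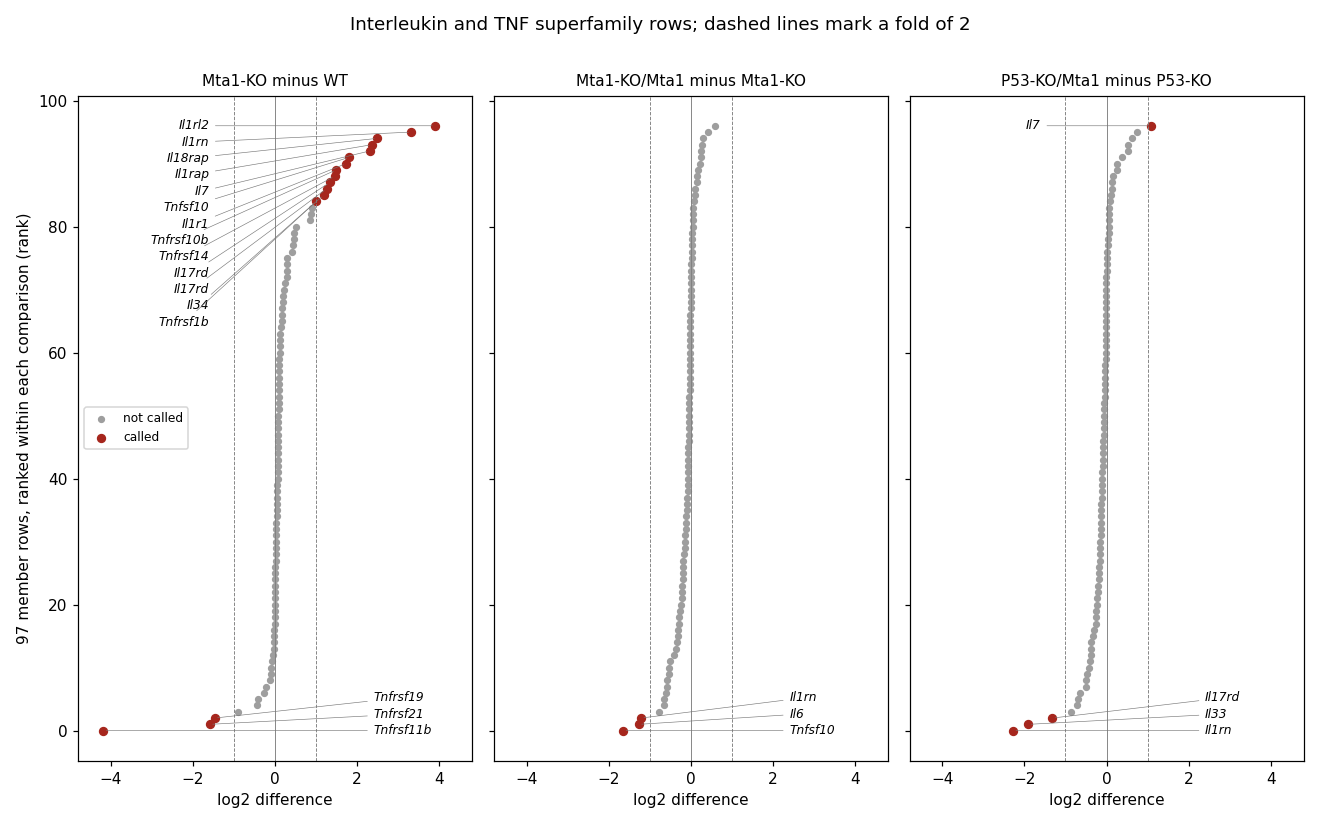
Log2 difference (x axis) of each of the 97 rows, ranked within each comparison (y axis), for Mta1-KO minus WT, Mta1-KO/Mta1 minus Mta1-KO and P53-KO/Mta1 minus P53-KO; red points were called and grey points were not, and dashed lines mark a fold of 2. Of the rows, 13 stand above and 3 below the lines in Mta1-KO minus WT, against 3 below in Mta1-KO/Mta1 minus Mta1-KO and 1 above and 3 below in P53-KO/Mta1 minus P53-KO.

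Il1rl2, which encodes the receptor chain for the IL-36 cytokines, had values of 2.56, 2.96 and 2.64 in the Mta1-KO arrays and of -1.18, -1.30 and -1.06 in the WT arrays, all given relative to the median of the 15 arrays for that row. The groups did not overlap, and the difference of 3.90 on the log2 scale, a 15.0-fold higher signal in Mta1-KO, was the largest rise among the members (standard error 0.0961, adjusted p = 3.34e-13 from limma). Il1rap, the signalling chain shared by the IL-1, IL-33 and IL-36 receptors, had values of 2.02, 2.0 and 1.75 in Mta1-KO and of -0.49, -0.41 and -0.43 in WT. Every Mta1-KO array was above every WT array, by 2.37 on average (5.15-fold, standard error 0.104, adjusted p = 1.78e-10). Il1r1, the signalling receptor for IL-1 alpha and beta, had values of 0.69, 0.88 and 0.72 in Mta1-KO and of -0.88, -0.91 and -1.13 in WT. Its log2 difference was 1.73 (3.33-fold, adjusted p = 7.77e-10), with no overlap between the groups. Il18rap, the signalling chain of the IL-18 receptor, had values of 0.81, 0.89 and 0.77 in Mta1-KO and of -1.75, -1.39 and -1.87 in WT. It was 5.62-fold higher in Mta1-KO, a log2 difference of 2.49 (standard error 0.0959, adjusted p = 4.10e-11).

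The partners and ligands of these receptors had smaller differences. The log2 difference between Mta1-KO and WT was 0.06 for the decoy receptor Il1r2 (adjusted p = 0.55) and 0.06 for Il18r1 (adjusted p = 0.27), the chain that binds IL-18. Among the ligands it was 0.09 for Il1a (adjusted p = 0.223) and 0.03 for Il1b (adjusted p = 0.748). The IL-36 ligands Il1f6, Il1f8 and Il1f9 had differences of 0.07, 0.08 and 0.20, the IL-36 antagonist Il1f5 one of 0.09 and the related Il1f10 one of 0.13, and none of these 5 passed the test (lowest adjusted p = 0.0637, for Il1f9). Il18 differed by 0.47 (adjusted p = 0.000817), with a fold under 2.

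**Figure D2:**
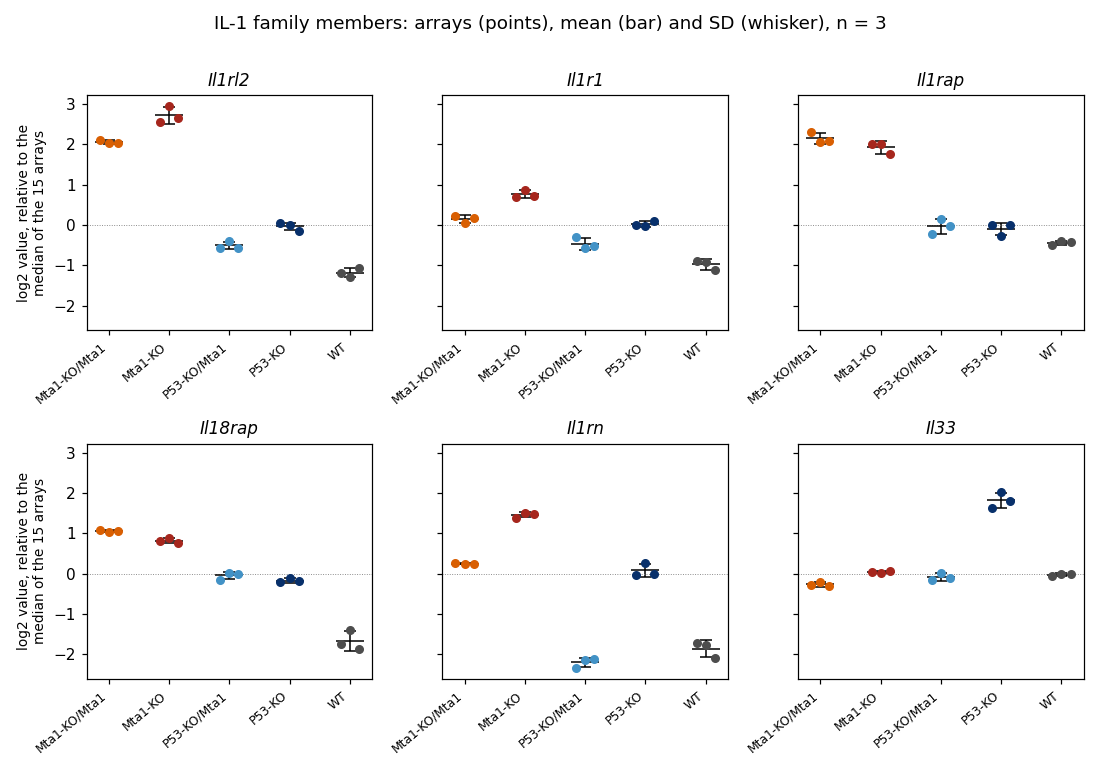
Log2 values relative to the row median (y axis) of 6 IL-1 family genes in the 15 arrays, by group (x axis); points are arrays, horizontal bars are means and whiskers are SDs (n = 3). Il1rl2, Il1rap and Il18rap are highest in Mta1-KO/Mta1 and Mta1-KO, Il1rn is lowest in P53-KO/Mta1 and WT, and Il33 stands out in P53-KO alone, with values of 1.64 to 2.02.

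Called and uncalled genes stood side by side on the chromosomes. Genes without a single-gene row, such as Il1rl1, were not placed, so only the order of the members is given. On chromosome 1 (GRCm38.p6, chr1:40084692-40551707) this order is Il1r2, Il1r1, Il1rl2, Il18r1 and Il18rap. Of these 5 members 3 were called higher in Mta1-KO. Il1r2, at one end, and Il18r1, between called members, were both at 0.06. On chromosome 2 (chr2:24153172-24351491) Il1f8, Il1f9, Il1f6, Il1f5, Il1f10 and Il1rn follow each other. Of these 6 members only Il1rn was called, and its other 5 neighbours had differences of 0.07 to 0.20.

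**Figure D3:**
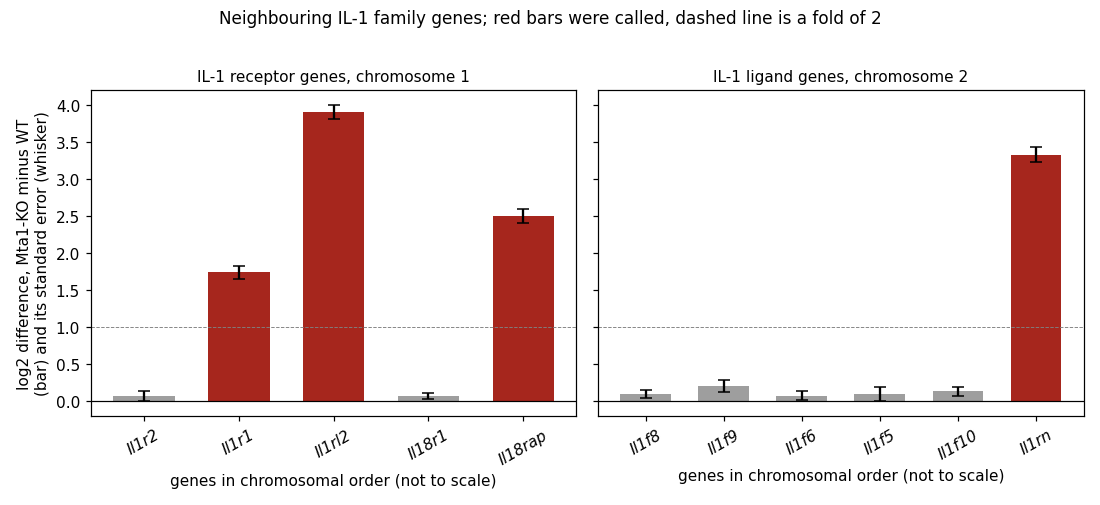
Log2 difference between Mta1-KO and WT (y axis, bar with its standard error as whisker) of IL-1 family members in chromosomal order (x axis, not to scale). Called genes are in red and a dashed line marks a fold of 2. Genes without a single-gene row, such as Il1rl1, are not shown. In the receptor genes of chromosome 1, Il1r1, Il1rl2 and Il18rap stand at 1.73, 3.90 and 2.49 beside Il1r2 and Il18r1 at 0.06, and in the ligand genes of chromosome 2 Il1rn stands at 3.32 beside 5 genes at 0.20 or less.

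The available promoters of the members, called or not, were searched for 3 motifs on both strands. The window ran from 250 bases before to 50 after each start in RefSeq (GRCm38.p6). The motifs were a kappa B site written GGNNTTTCC, an interferon response element written GAAANNGAA and an AP-1 site written TGANTCA. RefSeq gave 92 promoters of 75 of the genes. A kappa B match was present in 15 of these 92 promoters (16.3%, against 5.82% of all 32851 promoters), an interferon response match in 12 of the 92 (against 8.56% of all promoters) and an AP-1 match in 18 (19.6%, against 7.81%). Among the 12 promoters of members called higher in Mta1-KO, which belong to 9 genes, 4, 3 and 1 held these matches. The 4 with a kappa B match include overlapping windows of Il1rn that hold the same site. Of the 3 promoters of members called lower, which belong to 2 genes, none held one. The called genes Tnfrsf11b, Il7, Il34, Tnfrsf10b and Tnfsf9 had no promoter among the 92 and were not searched. Of these, Tnfsf9 was called only in P53-KO against WT. A match describes letters in this window and not a bound site. The 2 receptor genes with the kappa B match, the downstream start of Il1rn and Il6, which is described below, are shown with the matches in capitals, Il6 having also an AP-1 match at its first bases. The match begins at -116 from the start of Il1rl2, at -19 for Il18rap, at -50 for Il1rn and at -43 for Il6, and the windows are chr1:40324339-40324638, chr1:40515112-40515411, chr2:24345121-24345420 and chr5:30012864-30013163, each on the plus strand. Tnfrsf14, on the minus strand at chr4:154928028-154928327, is the example with an interferon response match, at -63.
Il1rl2: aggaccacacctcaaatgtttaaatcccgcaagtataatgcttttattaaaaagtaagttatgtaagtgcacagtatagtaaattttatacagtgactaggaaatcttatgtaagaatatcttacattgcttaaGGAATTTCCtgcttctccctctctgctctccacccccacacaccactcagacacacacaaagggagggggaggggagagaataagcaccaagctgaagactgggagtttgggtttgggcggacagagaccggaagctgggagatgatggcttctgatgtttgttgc
Il18rap: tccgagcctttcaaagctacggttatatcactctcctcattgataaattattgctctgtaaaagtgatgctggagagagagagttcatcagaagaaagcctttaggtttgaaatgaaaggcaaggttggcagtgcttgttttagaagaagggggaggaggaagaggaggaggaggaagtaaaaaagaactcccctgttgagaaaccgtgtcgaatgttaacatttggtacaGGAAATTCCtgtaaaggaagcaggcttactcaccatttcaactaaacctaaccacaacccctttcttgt
Il1rn: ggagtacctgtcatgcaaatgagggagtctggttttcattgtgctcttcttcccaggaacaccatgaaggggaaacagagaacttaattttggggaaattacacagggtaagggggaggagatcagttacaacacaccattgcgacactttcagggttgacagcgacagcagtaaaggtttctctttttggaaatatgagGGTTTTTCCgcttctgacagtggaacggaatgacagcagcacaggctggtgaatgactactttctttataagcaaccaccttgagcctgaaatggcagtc
Il6: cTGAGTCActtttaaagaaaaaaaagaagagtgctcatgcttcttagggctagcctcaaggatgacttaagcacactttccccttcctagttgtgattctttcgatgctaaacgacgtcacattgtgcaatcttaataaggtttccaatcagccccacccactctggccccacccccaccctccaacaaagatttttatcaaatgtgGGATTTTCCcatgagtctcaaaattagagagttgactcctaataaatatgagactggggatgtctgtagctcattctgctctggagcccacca
Tnfrsf14: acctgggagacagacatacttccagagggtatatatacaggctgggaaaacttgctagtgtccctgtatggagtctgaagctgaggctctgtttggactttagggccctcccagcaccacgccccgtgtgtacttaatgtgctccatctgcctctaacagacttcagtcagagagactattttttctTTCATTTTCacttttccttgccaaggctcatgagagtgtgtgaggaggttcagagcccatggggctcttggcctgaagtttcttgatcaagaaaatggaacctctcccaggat

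Il1rn, the IL-1 receptor antagonist, is the ligand-like gene of the family that changed most. Its values were 1.39, 1.5 and 1.49 in Mta1-KO and -1.72, -1.77 and -2.10 in WT. The Mta1-KO arrays lay closer to one another (SD 0.0613, n = 3) than the WT arrays (SD 0.21, n = 3), and the difference of 3.32 was many times either spread (10.02-fold, standard error 0.101, adjusted p = 2.89e-12). Il33, an alarmin released by damaged cells, had values of 0.05, 0.01 and 0.07 in Mta1-KO and of -0.07, 0.00 and -0.01 in WT, a difference of 0.07 (adjusted p = 0.54).

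In the TNF superfamily, Tnfsf10, which encodes the death ligand TRAIL, had values of 1.79, 1.86 and 1.66 in Mta1-KO and of -0.04, 0.00 and -0.09 in WT. It was 3.52-fold higher in Mta1-KO, a log2 difference of 1.82 (standard error 0.0696, adjusted p = 3.92e-11). Tnfrsf10b, the mouse death receptor for TRAIL, had values of 0.60, 0.56 and 0.38 in Mta1-KO and of -0.92, -1.08 and -0.93 in WT, a difference of 1.49 (2.82-fold, adjusted p = 7.85e-10). Ligand and receptor were thus both higher in every Mta1-KO array than in any WT array. Tnfrsf11b encodes osteoprotegerin, a secreted decoy receptor for RANKL and TRAIL. Its values were -3.02, -3.00 and -2.94 in Mta1-KO and 1.25, 1.20 and 1.15 in WT, and it was 18.2-fold lower in Mta1-KO (log2 difference -4.18, standard error 0.0625, adjusted p = 3.37e-15). Neither RANKL itself, encoded by Tnfsf11, nor its signalling receptor Tnfrsf11a passed the test, with differences of 0.24 (adjusted p = 0.191) and 0.18 (adjusted p = 0.081).

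Tnfrsf14, the receptor for the ligand LIGHT, had values of 0.93, 0.77 and 0.90 in Mta1-KO and of -0.75, -0.71 and -0.30 in WT. It was 2.75-fold higher in Mta1-KO (log2 difference 1.46, adjusted p = 7.67e-08), while its ligand gene Tnfsf14 differed by 0.10 (adjusted p = 0.321). Tnfrsf1b, one of the receptors for TNF, had values of 0.03, -0.05 and -0.09 in Mta1-KO and of -1.01, -1.08 and -1.06 in WT, a difference of 1.01 (2.01-fold, standard error 0.0513, adjusted p = 9.04e-10). The arrays did not overlap, but the fold lies at the threshold and fell below it without WT array 2 (0.99), without Mta1-KO array 1 (0.98) and after quantile normalization (0.84). The other TNF receptor, Tnfrsf1a, differed by 0.42 (adjusted p = 0.00267), with a fold under 2. The orphan receptor Tnfrsf19 had values of -0.16, -0.47 and -0.09 in Mta1-KO and of 1.20, 1.29 and 1.19 in WT, and Tnfrsf21, a receptor with a death domain, had values of -0.52, -0.77 and -0.47 in Mta1-KO and of 1.18, 0.87 and 0.96 in WT. Both fell with no overlap between the groups, by 1.47 (2.77-fold, adjusted p = 1.58e-09) and by 1.59 (3.01-fold, adjusted p = 1.82e-09) on the log2 scale.

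**Figure D4:**
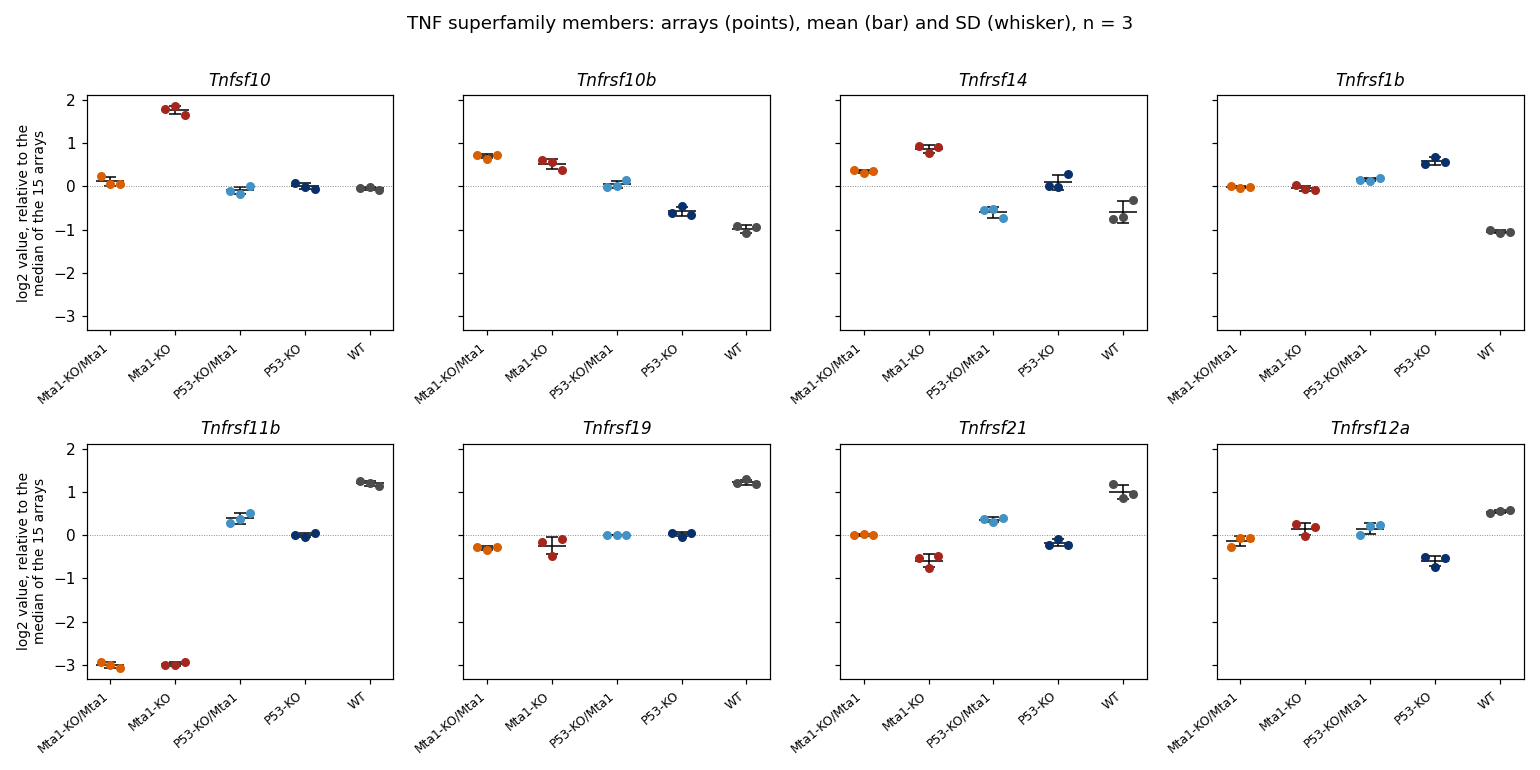
Log2 values relative to the row median (y axis) of 8 TNF superfamily genes in the 15 arrays, by group (x axis); points are arrays, horizontal bars are means and whiskers are SDs (n = 3). Tnfsf10 is high in the Mta1-KO arrays only, between 1.66 and 1.86, and Tnfrsf11b lies between -3.07 and -2.94 in both Mta1-KO/Mta1 and Mta1-KO.

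Outside these families the called genes were Il7, Il34 and Il17rd. Il7, a growth factor for lymphocyte precursors that stromal cells supply, had values of 0.55, 0.72 and 0.51 in Mta1-KO and of -1.56, -1.75 and -1.83 in WT. It was 4.95-fold higher in Mta1-KO (log2 difference 2.31, standard error 0.0812, adjusted p = 1.47e-11), and the row of its receptor Il7r differed by 0.04 (adjusted p = 0.62). Il34, a ligand of the receptor encoded by Csf1r, had values of 1.05, 1.04 and 1.05 in Mta1-KO and of -0.19, -0.22 and 0.00 in WT. It was 2.27-fold higher in Mta1-KO (1.18, adjusted p = 6.26e-08), whereas Csf1r, which is no member of the families but is the receptor of this ligand, fell by 1.70 (adjusted p = 2.45e-10). Il17rd, an IL-17 receptor family member known as an inhibitor of FGF signalling, was higher on both of its rows. The first row had values of 0.58, 0.63 and 0.47 in Mta1-KO and of -0.77, -0.83 and -0.73 in WT, a difference of 1.33 (adjusted p = 1.33e-09), and the second had values of 0.84, 0.46 and 0.31 in Mta1-KO and of -0.72, -0.62 and -0.83 in WT, a difference of 1.26 (adjusted p = 2.53e-06). The rows agreed in direction, with the wider spread on the second.

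A further 16 rows had an adjusted p under 0.05 with a fold under 2, so that 32 of the 97 rows passed the test at any fold, against 40.2% of all rows. The 5 with the largest differences were Il17d (-0.91), a secreted IL-17 family ligand, Tnfsf18 (0.89), the GITR ligand, Il10rb (0.87), a chain shared by the IL-10 and IL-22 receptors, Il13ra1 (0.87), a receptor chain for IL-13, and Il6st (0.52), the signalling chain gp130 shared by the IL-6 family. Their adjusted p ran from 1.09e-06 to 3.62e-05. The median log2 difference over the 97 rows was 0.08, against 0.03 over all rows. Group means spanned at least 1 on the log2 scale in 22 rows (22.7%, against 22.0% of all rows) and under 0.25 in 44 rows (45.4%, against 31.2%). Among the 44 are genes known from T cells, B cells and myeloid cells, such as Il2, Il4, Il5, Il9, Il10, Il12a, Il12b, Il17a, Il21, Il23a, Il2ra, Tnfrsf13b and Tnfrsf17. The 44 also hold others, such as Il19 and Il20. Some genes known from lymphocytes spanned more, such as Il12rb1 (0.50), Tnfrsf18 (0.62) and Tnfrsf9 (0.77), so the names are examples only. Of the 22, the lowest mean was in WT in 10, and the highest was in Mta1-KO in 8, in P53-KO in 6 and in WT in 5. These counts were not made over all rows, so they cannot be called particular to these genes.

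In the Mta1-KO/Mta1-labelled arrays, 3 members were lower than in Mta1-KO, namely Tnfsf10, Il6 and Il1rn. None of the 97 single-gene rows was called higher by limma, nor by the methods' t-test, while 8 were higher at an unadjusted p under 0.05. These 3 calls compare with 1.11% of all rows called, 0.322% higher and 0.788% lower. Genes of the families with no single-gene row are not counted here. Both rows shared by Tnfrsf22 and Tnfrsf23, described at the end, were called higher, by 1.36 and 1.08. The comparison shares the Mta1-KO arrays with that of Mta1-KO against WT, so a deviation of those arrays enters both with opposite sign. Tnfsf10 had values of 0.24, 0.07 and 0.06 in Mta1-KO/Mta1 and of 1.79, 1.86 and 1.66 in Mta1-KO. It was 3.13-fold lower (log2 difference -1.65, standard error 0.0696, adjusted p = 2.16e-09), and against WT the Mta1-KO/Mta1-labelled arrays differed by 0.17 (adjusted p = 0.0761). Il6, the cytokine that drives the acute phase response, had values of -1.22, -1.16 and -1.06 in Mta1-KO/Mta1 and of 0.18, 0.19 and 0.00 in Mta1-KO. The groups were clearly apart, with a difference of -1.27 (2.41-fold, standard error 0.146, adjusted p = 2.15e-05), although Mta1-KO and WT themselves differed by 0.14 (adjusted p = 0.494). Il6 was thus below WT in the Mta1-KO/Mta1-labelled arrays, by -1.12 (adjusted p = 2.17e-05). Its signalling chain Il6st differed by -0.32 between Mta1-KO/Mta1 and Mta1-KO (adjusted p = 0.00143).

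Il1rn had values of 0.27, 0.24 and 0.24 in Mta1-KO/Mta1, below the 1.39 to 1.5 of Mta1-KO, a difference of -1.21 (2.32-fold, adjusted p = 1.13e-06). After quantile normalization it was -0.85, under a fold of 2. Another 20 rows had an adjusted p under 0.05 with a fold under 2, 3 higher and 17 lower, so that 23 of 97 passed at any fold, against 28.0% of all rows. The 5 with the largest differences were the second row of Il17rd (-0.77), Il1rl2 (-0.66), the IL-4 receptor chain Il4ra (-0.64), Il1r1 (-0.61) and Tnfrsf21 (0.60). In Mta1-KO against WT, which shares the Mta1-KO arrays, Il4ra differed by 0.46 (adjusted p = 0.00102). Il18rap, Il1rap and Tnfrsf10b differed from Mta1-KO by 0.24, 0.23 and 0.18, which did not pass the test (adjusted p = 0.0842, 0.134 and 0.094). Tnfrsf11b had values of -2.94, -3.00 and -3.07, a difference of -0.02 (adjusted p = 0.889).

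Set against WT, the Mta1-KO/Mta1-labelled arrays had 11 members called, 8 higher and 3 lower, where 5.74% of all rows were called, 3.37% higher and 2.37% lower. The higher ones were Il1rl2 (3.24), Il18rap (2.73), Il1rap (2.59), Il1rn (2.11), Il7 (1.72), Tnfrsf10b (1.68), Il1r1 (1.13) and Tnfrsf1b (1.03), and the lower ones were Tnfrsf11b (-4.20), Tnfrsf19 (-1.52) and Il6 (-1.12), with adjusted p of 2.17e-05 or less. After quantile normalization Tnfrsf1b was 0.88, under a fold of 2. Il34, Il17rd, Tnfrsf14 and Tnfrsf21, called in Mta1-KO, differed from WT by less than a fold of 2 in these arrays, with log2 differences of 0.66 for Il34, 0.75 and 0.49 for the rows of Il17rd, 0.94 for Tnfrsf14 and -0.99 for Tnfrsf21.

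In MEFs without P53, 4 member rows were called between P53-KO/Mta1 and P53-KO, Il1rn, Il33 and 1 row of Il17rd lower and Il7 higher, where 1.62% of all rows were called, 0.394% higher and 1.22% lower. Il1rn had values of -2.34, -2.15 and -2.12 in P53-KO/Mta1 and of -0.03, 0.27 and 0.00 in P53-KO. It fell by 2.28 on the log2 scale (4.86-fold, standard error 0.101, adjusted p = 1.42e-09), to values just below the -1.72, -1.77 and -2.10 of WT. Il33 had values of -0.17, 0.01 and -0.10 in P53-KO/Mta1 and of 1.64, 2.02 and 1.80 in P53-KO. The difference was -1.91 (3.75-fold, standard error 0.08, adjusted p = 7.84e-10), and P53-KO was the only group in which this row was high. Il7 had values of 0.37, 0.17 and 0.31 in P53-KO/Mta1 and of -0.92, -0.77 and -0.73 in P53-KO, a difference of 1.09 (2.13-fold, adjusted p = 2.77e-07). After quantile normalization the difference for Il7 was 0.92, under a fold of 2.

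The second row of Il17rd had values of -0.10, 0.25 and 0.00 in P53-KO/Mta1 and of 1.34, 1.51 and 1.26 in P53-KO, a difference of -1.32 (2.49-fold, adjusted p = 4.99e-06). The first row moved the same way by -0.87 (adjusted p = 5.71e-07), under a fold of 2. Another 21 rows had an adjusted p under 0.05 with a fold under 2, 6 higher and 15 lower, so that 25 of 97 passed at any fold, against 29.9% of all rows. Besides the first row of Il17rd, the largest differences were those of Tnfrsf12a (0.74), the receptor for the TNF-like ligand TWEAK, Il6st (-0.71), Tnfrsf14 (-0.69) and Il10rb (-0.64). The IL-1 receptor chains Il1r1 and Il1rl2 differed by -0.49 and -0.47 (adjusted p = 0.000606 and 0.00176), Il1rap by 0.06 (adjusted p = 0.755) and Tnfsf10 by -0.10 (adjusted p = 0.327).

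The responses to Mta1 in the 2 backgrounds were compared directly, as the difference between Mta1-KO/Mta1 minus Mta1-KO and P53-KO/Mta1 minus P53-KO. The former is re-expression in cells without Mta1 and the latter overexpression in cells that keep it. This cannot be told apart from P53, embryonic age or source. The difference was called for 5 members, 2 with positive and 3 with negative values, where 1.63% of all rows were called, 0.979% positive and 0.651% negative. Il7 was lower with Mta1 in the Mta1-KO background (-0.59) and higher in the P53-KO background (1.09), a difference of -1.68 (standard error 0.115, adjusted p = 3.13e-07). Tnfsf10 was lower in the Mta1-KO background (-1.65) and differed by -0.10 in the P53-KO background (adjusted p = 0.327), a difference of -1.55 (adjusted p = 1.46e-07). P53-KO and WT had similar values of Tnfsf10, the P53-KO arrays at 0.09, -0.01 and -0.05 and the WT arrays at -0.04, 0.00 and -0.09. For Il33 the difference was 1.60 (adjusted p = 4.49e-07), with responses of -0.31 and -1.91. Il1rn was lower with Mta1 in both backgrounds, by -1.21 and -2.28, and the larger fall in the P53-KO background gave a difference of 1.07 (adjusted p = 0.000156), which was 0.97 without P53-KO array 2.

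Tnfrsf12a was called in neither background on its own, with responses of -0.28 (adjusted p = 0.03) and 0.74 (adjusted p = 2.31e-05). Its values were -0.28, -0.06 and -0.06 in Mta1-KO/Mta1, 0.26, -0.01 and 0.19 in Mta1-KO, 0.00, 0.21 and 0.24 in P53-KO/Mta1 and -0.52, -0.73 and -0.53 in P53-KO. The difference of -1.02 (2.03-fold, adjusted p = 8.17e-05) lies at the threshold of the fold, and its size was between 0.95 and 0.99 without Mta1-KO array 1, Mta1-KO/Mta1 array 1, P53-KO array 2, P53-KO/Mta1 array 2 or P53-KO/Mta1 array 3, and 0.90 after quantile normalization. For Il6 the responses were -1.27 and -0.38, and their difference of -0.89 (adjusted p = 0.00823) did not reach a fold of 2. At any fold 16 of 97 rows passed, against 17.4% of all rows.

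**Figure D5:**
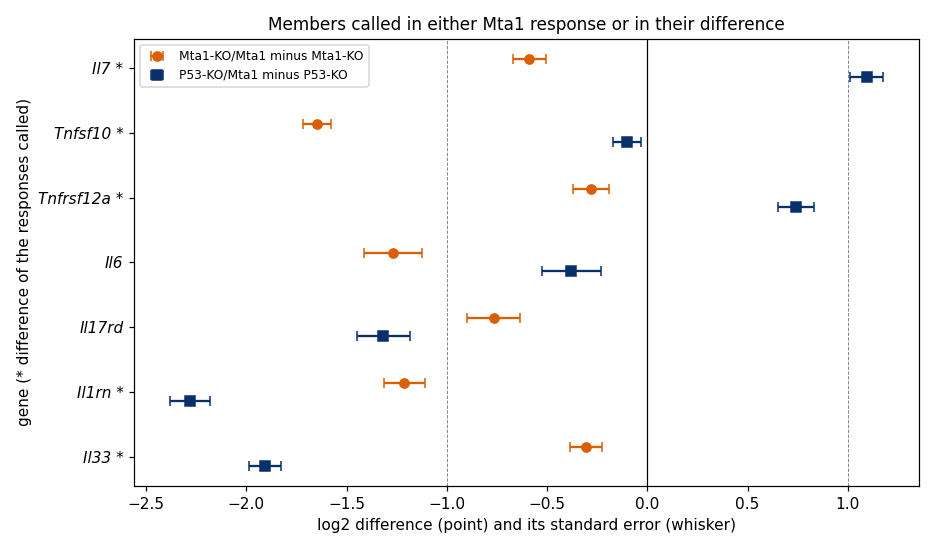
Log2 difference (x axis; point, with its standard error as whisker) between Mta1-KO/Mta1 and Mta1-KO (orange) and between P53-KO/Mta1 and P53-KO (dark blue) for the 7 rows called in either response or in their difference (y axis), an asterisk marking a called difference. Il7 lies at -0.59 and 1.09 on opposite sides of 0, and Tnfsf10 at -1.65 and -0.10.

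P53-KO MEFs, which keep Mta1, were also set against WT, with the age and source of the cells confounded. The Mta1 row was itself higher in P53-KO than in WT, by 0.41 (adjusted p = 8.44e-05 from limma). Called were 13 rows of 12 genes, which is 13.4% of the 97 rows and near the 12.1% of all rows. Higher calls were 8 (8.25%, against 4.87% of all rows) and lower calls 5 (5.15%, against 7.26%). Higher were Il17rd (2.09 and 1.58 on its rows), Il1rn (1.94), Il33 (1.85), Tnfrsf1b (1.64), Il18rap (1.5), Il1rl2 (1.15) and the IL-3 receptor chain Il3ra (1.11). Lower were the 4-1BB ligand Tnfsf9 (-1.51), Tnfrsf19 (-1.21), Tnfrsf11b (-1.20), Tnfrsf21 (-1.18) and Tnfrsf12a (-1.14). Of these, Il1rl2 (0.95) and Tnfrsf12a (-0.92) fell below a fold of 2 after quantile normalization, as did Il3ra (0.97) without WT array 1. Il1rap, 5.15-fold higher in Mta1-KO, differed by 0.35 in P53-KO against WT (adjusted p = 0.0103), and Il34 by 0.06 (adjusted p = 0.635). Both comparisons use the WT arrays.

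Genes that act with these ligands and receptors were listed from textbook knowledge. Of all rows, 6.64% were called in Mta1-KO against WT, 4.23% higher and 2.41% lower. The counts in the lists were not tested against these shares. Among 14 measured genes of the TNF family with other names, 1 was called in Mta1-KO against WT, the death receptor Fas (2.42, adjusted p = 1.95e-10), while Tnf itself differed by 0.04 (adjusted p = 0.822). Among 21 measured cytokine genes related to interleukins, Lifr (1.97) and Osmr (1.29), receptor chains that pair with gp130, were higher and Csf1r was lower. In the list of 18 measured genes of TNF receptor signalling, the necroptosis kinase Ripk3 (4.72), the apoptosis inhibitors Birc3 (1.70) and Cflar (1.06) were higher and the deubiquitinase Cyld (-1.56) was lower. None of 15 measured genes of IL-1 receptor signalling, such as Myd88 and Irak1, was called by limma or by the methods' t-test (median log2 difference -0.01, against 0.03 over all rows), while at an unadjusted p under 0.05 there were 3 higher and 7 lower. Of 12 NF-kB genes, Ikbke (1.35) and Nfkbie (1.20) were higher and Rel (-1.29) was lower. Of 24 rows of JAK, STAT and SOCS genes, Stat2 (2.39), Socs2 (2.18) and Stat6 (1.74) were higher.

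Of 17 genes that cytokines induce in fibroblasts, 6 were called higher in Mta1-KO against WT and 1 was called lower (median 0.74, against 0.03 over all rows), among them the neutrophil protein Lcn2 (3.64), the chemokine Cxcl10 (2.88) and the adhesion molecule Vcam1 (2.44) as higher and the chemokine Cxcl5 (-2.07) as lower. In the Mta1-KO/Mta1-labelled arrays against Mta1-KO, where 1.11% of all rows were called, 1 of the 17 was called, Cxcl5 (-1.5). It was the only call in the 7 lists. In P53-KO/Mta1 against P53-KO, 1 of the 17 was called higher, the prostaglandin synthase Ptgs2 (1.70), and 6 were called lower, with the collagenase Mmp13 (-3.78), Lcn2 (-3.26), the stromelysin Mmp3 (-2.86) and the acute phase gene Saa3 (-2.66) at the head. In the other lists the only call in this comparison was Lifr (-2.11). Of all rows, 1.62% were called in it, 0.394% higher and 1.22% lower.

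The labelled cell type and markers of other cells moved with the groups in part. Over 16 fibroblast markers the mean of each array ran from 0.37 to 0.38 in Mta1-KO and from -1.26 to -1.20 in WT, and 8 of the 16 were called higher in Mta1-KO, with Postn (5.60), Dcn (4.90) and Thy1 (4.20) at the head. The mean ran from -0.09 to -0.05 in Mta1-KO/Mta1, from -0.26 to -0.13 in P53-KO/Mta1 and from 0.48 to 0.57 in P53-KO. Over 9 macrophage and monocyte markers it ran from -0.19 to -0.08 in Mta1-KO and from 0.09 to 0.18 in WT, with Csf1r (-1.70) and Cd14 (-1.36) called lower. None of 11 T, B and NK cell markers, 10 rows of mast cell and basophil markers or 7 general blood cell markers was called by limma or the methods' t-test in any of the 3 comparisons of Mta1. At an unadjusted p under 0.05 there were 0 of the T, B and NK and blood cell markers and, in each comparison and direction, 1 to 2 mast cell rows, and the pan-leukocyte gene Ptprc differed by 0.02 between Mta1-KO and WT (adjusted p = 0.739). Of 9 muscle markers 3 were called higher in Mta1-KO than in WT, of 12 endothelial markers 1 was called higher and of 10 epithelial markers 1 was called lower. Of all rows, 4.23% were called higher and 2.41% lower in Mta1-KO against WT. The part of these marker differences in the results on ligands and receptors was not tested, and in bulk RNA a change in the number of cells of a type cannot be told apart from a change of RNA per cell.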

How the data were processed

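The authors hybridised RNA to Affymetrix Mouse Exon 1.0 ST arrays and processed them in GeneSpring GX 10.0.2. The deposited log2 values were normalized by the authors and centred per row on the median of 15 arrays (largest absolute row median 0). How exon probes were summarized and background treated is not stated in the paper or labels used here, and a filter or floor in that step would flatten weak cytokine transcripts. Gene names came from the platform annotation and were compared by Entrez ID with RefSeq (97 of 97 member rows matched, 0 symbols changed). Rows with several genes were tested but not named.

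A mean per group was fitted to all 16755 rows with limma 3.58.1 in R 4.3.3 (10 residual and 3.46 prior degrees of freedom), with Benjamini-Hochberg adjustment over all rows. The fit was tested on simulated data. Every member was accounted for, members called in the comparisons of Mta1 were given by array, and other members by the largest differences or as partners of called ones. The genes and the 7 pathway and 8 marker lists were chosen with earlier results of these data known. Alternatives were the methods' t-test, other normalizations, fold thresholds and fits, a replicate block and leaving out each array. Figures used matplotlib 3.10.9.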

Additional observations from a re-analysis of the deposited data

Results flagged for a closer look

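The response to Mta1, tested as a contrast of its own in limma, differed between the Mta1-KO and the P53-KO background in 5 genes of these families. The difference, the response in Mta1-KO minus that in P53-KO on the log2 scale, was -1.68 for Il7, -1.55 for Tnfsf10, -1.02 for Tnfrsf12a, 1.07 for Il1rn and 1.60 for Il33. Il7 was the only one of the 5 called in the P53-KO background as higher with Mta1, and Il33 started from a value in P53-KO that no other group had. The backgrounds also differ in embryonic age, source and Mta1 status, which cannot be told apart from P53. Mta1 was re-expressed in cells without it in the Mta1-KO background and overexpressed in cells that keep it in the P53-KO background. The Mta1 row did not show the re-expression in the Mta1-KO/Mta1-labelled arrays.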

How the results depend on the processing

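The counts of called members, in the order Mta1-KO over WT, Mta1-KO/Mta1 over Mta1-KO, P53-KO/Mta1 over P53-KO, the difference of these responses, Mta1-KO/Mta1 over WT and P53-KO over WT, were 16, 3, 4, 5, 11 and 13. With no minimum fold they were 32, 23, 25, 16, 32 and 40, and with a fold of at least 1.5 they were 20, 9, 10, 8, 21 and 23. Leaving out each array gave 15 to 16, 3 to 3, 4 to 4, 4 to 5, 11 to 13 and 13 to 14. Quantile normalization gave 16, 2, 3, 5, 12 and 11, of which 15, 2, 3, 4, 10 and 11 were also called without it. With replicate number as a replicate block the counts were 16, 3, 4, 5, 11 and 13, as they also were with arrays centred on their medians, robust moderation and single-gene rows. The numbers did not pair the arrays: over 30 same-numbered pairs of arrays, correlations of deviations from group means ran from -0.379 to 0.423, and 6 of 15 arrays correlated best with their own number. Over 60 pairs with different numbers they ran from -0.552 to 0.46. Some arrays of different groups thus deviated together or in opposite ways, which a block by number does not capture. Of 389 alternative values of the 28 named differences, 377 kept direction and side of the threshold, 12 fell below a fold of 2 and 0 reversed. The methods' t-test gave the same counts in the 5 comparisons it fits. A filter on dim rows was not run, since the values hold no signal level.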

Other observations

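The 8 rows that carry a gene of these families together with other genes were tested with all rows, and their differences cannot be assigned to a single gene. Both rows shared by Tnfrsf22 and Tnfrsf23, decoy receptors for TRAIL in mice, were higher in the Mta1-KO/Mta1-labelled arrays than in Mta1-KO. The first had values of 1.83, 1.56 and 1.75 in Mta1-KO/Mta1 and of 0.39, 0.42 and 0.25 in Mta1-KO, a log2 difference of 1.36, and the second had values of 1.15, 1.16 and 1.29 in Mta1-KO/Mta1 and of 0.14, 0.22 and 0.00 in Mta1-KO, a difference of 1.08. Against P53-KO, the P53-KO/Mta1 arrays differed by 1.06 on the first row, which was called, and by 0.99 on the second, which was not. In Mta1-KO against WT the first row differed by 1.36, called, and the second by 0.79, not called. Among the rows used here that carry a gene of the families, these were the only ones called higher in Mta1-KO/Mta1 when set against Mta1-KO. They were named after their values were seen.

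A row shared by Tnfsf13, Tnfsfm13 and Tnfsf12 differed between Mta1-KO and WT by 1.22 and was called, while the other row with these symbols differed by 0.65, under a fold of 2. Between P53-KO and WT the first of these rows differed by 0.76, under a fold of 2, and the other by 1.29, which was called. A row shared by Neil3 and Tnfrsf13c differed between P53-KO and WT by -1.37 on the log2 scale, and was called. The rows that carry Il31ra, Il22 or Il1f9 with other genes were called in no comparison.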
